A study of Mus musculus with 2 samples.

Results

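The genes described here mark thymocytes that are selected by strong (agonist) T cell receptor signals and the regulatory T cells (Treg cells) that arise from them. They are the 8 genes Foxp3, Ikzf2, Il2ra, Tnfrsf18, Tnfrsf4, Tnfrsf9, Ctla4 and Pdcd1, chosen by name and matched by mouse Entrez ID among the 24532 gene IDs of the deposited tables; each was found once in both tables. RNA was measured in sorted double-positive (DP) thymocytes, precursors that carry both CD4 and CD8, which had gained the activation marker CD69; the mice were C57BL/6 and 6 weeks old. Of the 2 libraries, one was labelled a conditional knockout (KO, genotype NSRP1f/fCD4Cre: floxed Nsrp1 alleles plus a Cre driven from CD4, active from the DP stage), and the other was labelled wild type (WT, NSRP1f/f: the same floxed alleles without Cre), so that effects of Cre and of the deletion cannot be told apart. Nsrp1 encodes NSrp70, a protein of nuclear speckles with a role in splice site choice, and the comparison asks how gene expression differs in these cells when it is deleted. The labels do not say how many mice gave each library. With 1 library per genotype no test was made and no difference has a replicate check; the 95% intervals given in brackets (exact Poisson for levels, exact binomial for ratios and shares) reflect counting error alone.

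Most thymocytes that bind self-peptide very strongly die, but some are diverted into other lineages, of which Foxp3-positive Treg cells are the best known. In the mouse thymus, strong signals raise Helios (Ikzf2), PD-1 (Pdcd1) and the costimulatory receptors GITR (Tnfrsf18), OX40 (Tnfrsf4) and 4-1BB (Tnfrsf9). IL-2 received through CD25 (Il2ra) then helps to turn on Foxp3. CTLA-4 (Ctla4) is the inhibitory receptor through which Treg cells restrain other T cells.

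The covered exonic bases were 5076 megabases in the library labelled KO and 4199 megabases in the library labelled WT. Nsrp1 RNA stood at 29.6 TPM (transcripts in 1000000) in the library labelled KO and 29.7 TPM in the library labelled WT, a ratio of 0.997 (0.908 to 1.09), an interval that holds 1. The log2 fold change of Nsrp1, KO over WT by label with 1 added to each level, was -0.0011 outside the last exon and -0.0055 within it. These values do not bear out the KO label at the level of whole-gene RNA or of these parts. The labels do not name the deleted exons, and the groups are called by their labels throughout. The sorting markers were high in both, with Cd4 at 663 and 725 TPM, Cd8a at 1151 and 1138 TPM and Cd69 at 522 and 430 TPM in the libraries labelled KO and WT. Sex-linked RNA also differed. Xist stood at 76.3 and 201.8 TPM and the Y-linked gene Ddx3y at 71.2 and 31.1 TPM in the libraries labelled KO and WT. Effects of sex therefore cannot be told apart from those of genotype. Each library thus held both Xist and Y-linked RNA, and whether each mixes cells of male and female mice was not tested.

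All 8 genes were above 1 TPM in both libraries, and their levels spanned nearly the same range in each. In the library labelled KO the order was Pdcd1, Ikzf2, Tnfrsf18, Tnfrsf9, Tnfrsf4, Ctla4, Il2ra and Foxp3, from 113 to 1.61 TPM. Intervals overlapped there between Pdcd1 and Ikzf2 and between Ctla4 and Il2ra. In the library labelled WT the order was Ikzf2, Pdcd1, Tnfrsf18, Tnfrsf9, Tnfrsf4, Ctla4, Il2ra and Foxp3, from 136 to 1.23 TPM, and no neighbours had overlapping intervals. TPM is scaled by transcript length, so these levels can be set side by side between genes, but depth was uneven within genes. Outside the last (terminal) exon, in the same units, Ikzf2 stood at 55.3 and 98.9 in the libraries labelled KO and WT. Pdcd1 stood there at 110 and 123, so the order of these 2 genes depends on the exons used.

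**Figure D1:**
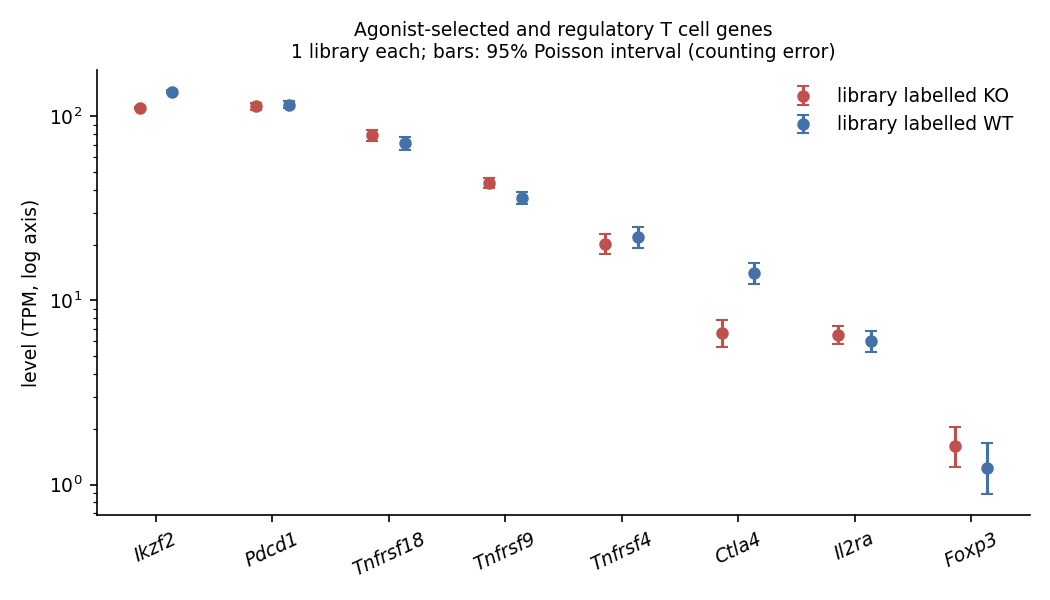
Level (TPM, log axis) of the 8 genes in the library labelled KO (red, left of each pair) and the library labelled WT (blue), 1 library each, with 95% exact Poisson intervals of the estimated read pairs. Ctla4 is the gene whose points lie farthest apart, 6.65 TPM in the library labelled KO against 14.0 TPM in the library labelled WT.

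Ctla4 was the gene that differed most, 2.11-fold below its WT-labelled level in the KO-labelled library, and Ikzf2 was lower by a smaller amount; the log2 fold changes of the other 6 lay between -0.11 and 0.26. Fold changes are the log2 of KO-labelled over WT-labelled TPM, each with 1 added, and a gene was called where this was 1 or more in size, a threshold that is no test. None of the 8 genes passed it, where 2.03% of the 12029 genes that reached 1 TPM in either library did (244 genes). In the library labelled KO, 79 of these genes (0.657%) were higher and 165 (1.37%) lower. Computed on FPKM, also with 1 added, 51 genes were higher and 50 lower. FPKM is the smaller number here (48.8 against 113 TPM for Pdcd1 in the library labelled KO), so the added 1 weighs more. With TPM rescaled by the median ratio, 90 genes were higher and 150 lower. Where 5 TPM in at least 1 library was required, 1.3% of 9907 genes were called, 0.464% higher and 0.838% lower, and again none of the 8. Ctla4 alone was called with a pseudocount of 0.1 TPM, where 3.69% of all genes were called and 2.54% were called lower. It alone was also called outside the terminal exon, where 1.79% of 11260 genes were called and 1.16% were called lower. The log2 fold changes of 4 of the 8 were above zero and 4 below, with a median of 0.03, against a median of -0.07 over all genes tested. The ratio of TPM had an interval below 1 for 2 genes (Ctla4 and Ikzf2), above 1 for Tnfrsf9 alone, and holding 1 for the other 5. The place of Tnfrsf18 in this split depends on the scaling, as the lower end of its interval was 0.999. Its log2 fold change was 0.15, and 0.21 with TPM rescaled by the median ratio.

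**Figure D2:**
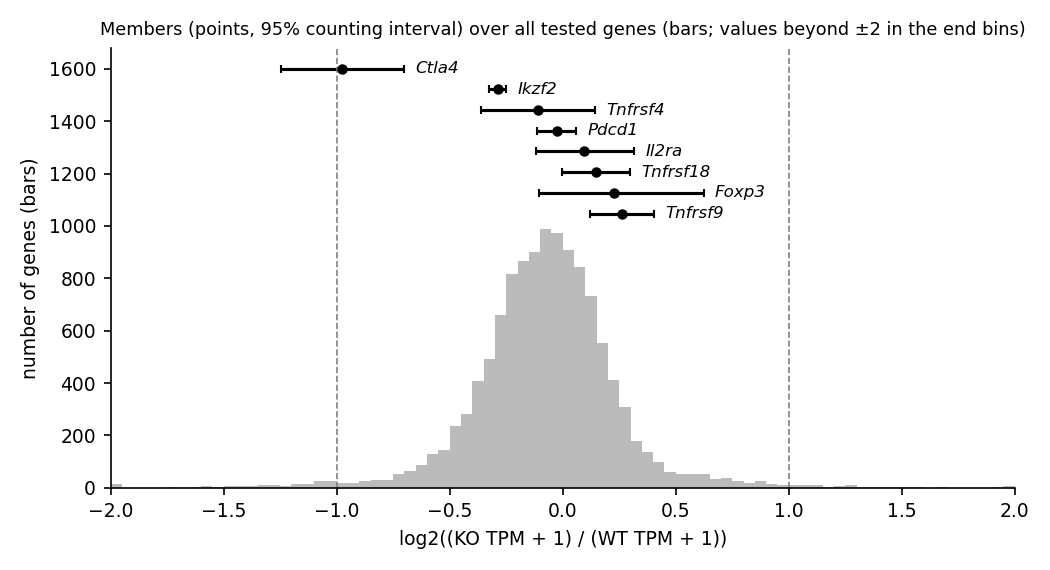
Log2 fold change, KO over WT by label, of the 8 genes (points, with the interval from counting error) above the distribution of all 12029 tested genes (grey bars, number of genes per bin). Ctla4 lies next to the lower dashed line at -1 and the other 7 lie inside the main body of the distribution.

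Ctla4 (gene ID 12477, chromosome 1, 60909025 to 60915832 in mm10, plus strand) encodes the inhibitory receptor CTLA-4, which competes with CD28 for the ligands CD80 and CD86. The library labelled KO had 6.65 TPM of Ctla4 (5.60 to 7.85), against 14.0 TPM (12.3 to 16.0) in the library labelled WT, from 140 and 230 estimated read pairs. The intervals do not overlap, and the ratio was 0.473 (0.381 to 0.587), with a log2 fold change of -0.98. This is just short of the threshold, and 171 of the 12029 genes (1.42%) were as low or lower. In bulk RNA, fewer cells that express Ctla4 and less Ctla4 RNA per cell cannot be told apart.

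The difference ran over the whole Ctla4 gene. Exon depth, scaled to the same units as TPM and called TPM-equivalents, was lower in the library labelled KO in each of the 4 exons. Exon 1 stood at 2.56 and 10.04 TPM-equivalents in the libraries labelled KO and WT, a ratio of 0.255 (0.0937 to 0.610). Exon 2 had a ratio of 0.490 (0.299 to 0.794) and the terminal exon 4 one of 0.479 (0.365 to 0.627). Exon 3 had a ratio of 0.689, with an interval of 0.299 to 1.57 that holds 1, from 12.8 and 14.4 read-pair equivalents. The neighbours of Ctla4 on chromosome 1 are the costimulatory receptor genes Cd28 and Icos, and their whole-gene levels were close. Cd28 stood at 479 and 487 TPM and Icos at 46.7 and 47.0 TPM in the libraries labelled KO and WT. Without the terminal exon the log2 fold change was -0.31 for Cd28 and -0.23 for Icos, against -1.002 for Ctla4.

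Exon 3 of Ctla4 is the exon that distinguishes its transcripts: it encodes the membrane-spanning part, and the RNA without it is known to encode a soluble CTLA-4. The exon (chromosome 1, 60913219 to 60913328, 110 bases, all coding) is printed from GENCODE M21 (GRCm38) in capitals, between the last 15 bases of exon 2 and the first 15 of exon 4, which are joined when it is skipped.
Ctla4 exon 3: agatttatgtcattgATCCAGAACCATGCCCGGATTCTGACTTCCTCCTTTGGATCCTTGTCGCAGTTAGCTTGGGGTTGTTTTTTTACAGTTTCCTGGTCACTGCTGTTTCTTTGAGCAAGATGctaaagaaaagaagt
The transcript without exon 3 (NM_001281976) was estimated at 36.6% of Ctla4 TPM (28.6 to 45.1%, exact binomial) in the library labelled KO and at 34.9% (28.7 to 41.4%) in the library labelled WT. The transcript with it (NM_009843) stood at 4.22 and 9.15 TPM. The estimated shares differed by less than counting error. The depth of exon 3 was above the level of NM_009843, the only annotated transcript that holds it, in both libraries. It stood at 10.5 TPM-equivalents (5.54 to 18.0) in the library labelled KO, an interval above 4.22 TPM. In the library labelled WT it stood at 15.2 (8.39 to 25.3), an interval that holds 9.15 TPM. Relative to the mean of exons 2 and 4 it was 1.46 and 1.03, where skipping would give a value below 1. These 2 values have no interval and rest on 12.8 and 14.4 read-pair equivalents of exon 3. The depth thus does not bear out the estimated share in the library labelled KO. In the library labelled WT it is too shallow to decide. Such shares are the estimates of the authors' software, and their intervals leave out any error in assigning reads to transcripts.

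**Figure D3:**
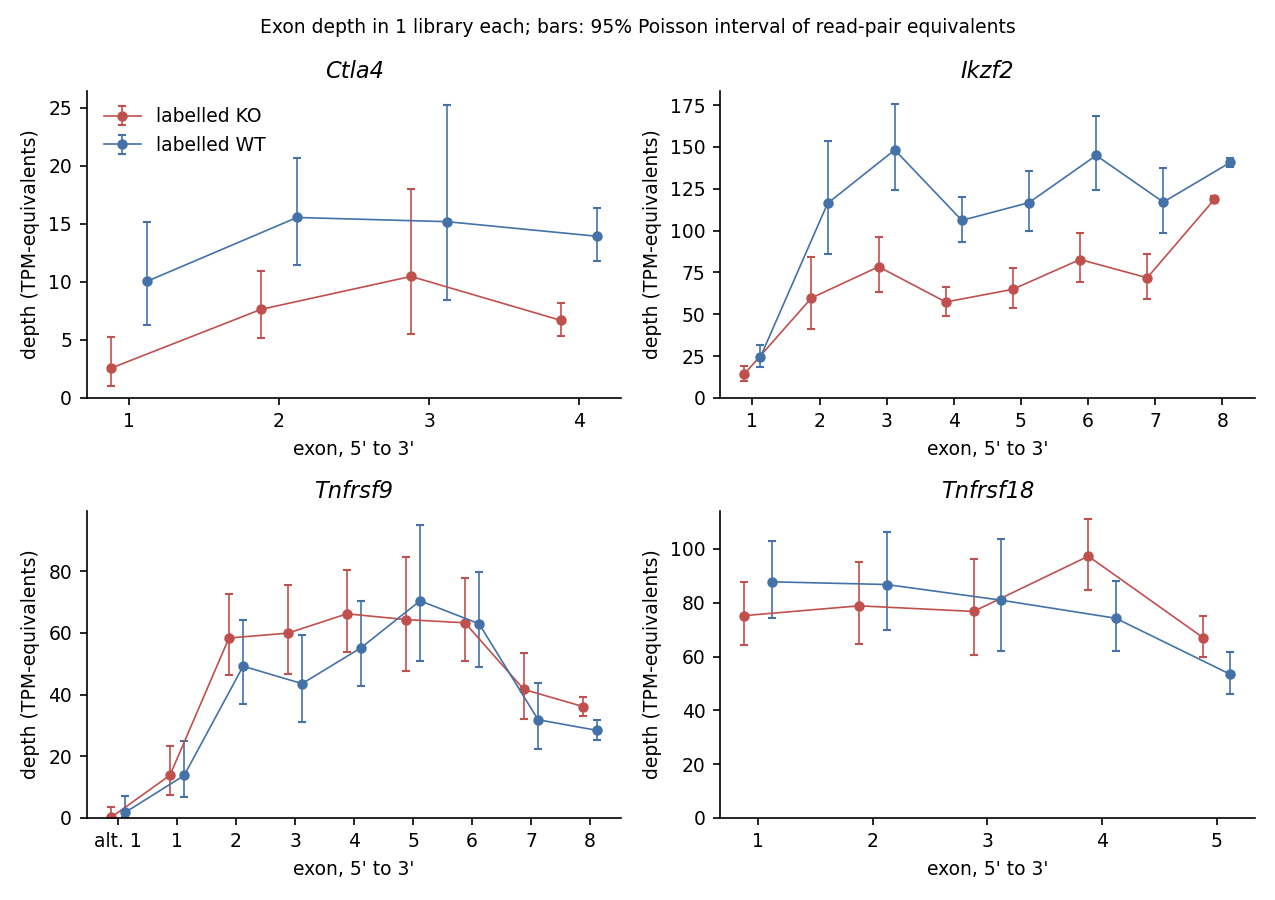
Depth of each exon in TPM-equivalents, from 5' to 3', for Ctla4, Ikzf2, Tnfrsf9 and Tnfrsf18 in the library labelled KO (red) and the library labelled WT (blue), with 95% Poisson intervals of read-pair equivalents; "alt. 1" is the distal first exon of Tnfrsf9. The lines of Ikzf2 are apart in exons 2 to 7 and draw near in exon 8, the long terminal exon.

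Ikzf2 (gene ID 22779, chromosome 1, 69531210 to 69685960, minus strand) encodes Helios, an Ikaros family zinc finger factor that marks strongly signalled thymocytes and most thymus-derived Treg cells in the mouse. It was the most deeply covered of the 8 genes, with 11654 and 11060 estimated read pairs in the libraries labelled KO and WT. Ikzf2 had 111 TPM (109 to 113) in the library labelled KO, against 136 TPM (133 to 138) in the library labelled WT, a ratio of 0.818 (0.797 to 0.839) and a log2 fold change of -0.29. Of all tested genes, 19.4% had a lower fold change, so this value is not unusual among them.

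Most of these reads lie in the terminal exon of 8283 bases, and the other exons of Ikzf2 differed more. Exons 1 to 7 all had a depth ratio between 0.514 and 0.613, and all 7 intervals lay below 1. Exon 3 stood at 78.4 and 148 TPM-equivalents in the libraries labelled KO and WT, and exon 4 at 57.3 and 106. The terminal exon stood at 119 and 141 TPM-equivalents, a ratio of 0.843 (0.820 to 0.866). Outside the terminal exon the log2 fold change was -0.83, from 701 and 974 read pairs. The median of such values over 11260 genes was -0.14, and of the 6797 genes that had 100 or more read pairs both inside and outside the terminal exon, 1.15% had a lower one. The terminal exon of Ikzf2 had a log2 fold change 0.58 above that of the rest of the gene, against a median of 0.19 over those genes. Only 1 Ikzf2 transcript (NM_011770) is in the authors' annotation, so transcripts of different 3' ends cannot be told apart here.

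Foxp3 (gene ID 20371, chromosome X, 7579676 to 7595243, plus strand) encodes the lineage factor of Treg cells and was the lowest of the 8. Foxp3 had 1.61 TPM (1.25 to 2.05) in the library labelled KO, against 1.23 TPM (0.884 to 1.67) in the library labelled WT, from 67.7 and 40.9 estimated read pairs. The intervals overlap, and the ratio of 1.31 (0.875 to 1.98) holds 1. Its log2 fold change was 0.23 for the whole gene and -0.30 outside the terminal exon, so the data give it no direction. There it stood at 1.32 and 1.85 TPM-equivalents, from 21.0 and 22.8 read pairs. The terminal exon stood at 1.79 and 0.892 TPM-equivalents in the libraries labelled KO and WT, a ratio of 2.01 (1.14 to 3.67). In the authors' annotation 590 of its 2344 bases are also exonic on the opposite strand in Ccdc22, a gene at 48.2 and 48.5 TPM. The labelled RNA kit does not mark strand, so Foxp3 and Ccdc22 reads cannot be told apart there. Outside the terminal exon, 267 exonic bases of Foxp3 are also exonic in Flicr, a long non-coding RNA gene on the same strand. Flicr stood at 0.349 and 0.546 TPM, and reads within these bases cannot be told apart either.

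The software assigned all Foxp3 reads to NM_054039 in the library labelled KO and all to NM_001199347 in the library labelled WT. These transcripts differ by exon 2 of NM_001199347, of 67 bases, which had a coverage of 0 in both libraries. The exons that Foxp3 transcripts share were covered in both, and the first exon of NM_001199348 was at 0 in both. The change of transcript name is therefore not carried by any read over the exon that sets the transcripts apart.

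Il2ra (gene ID 16184, chromosome 2, 11642792 to 11693194, plus strand) encodes CD25, the alpha chain that gives the IL-2 receptor its high affinity. Il2ra had 6.499 TPM (5.81 to 7.25) in the library labelled KO, against 6.02 TPM (5.27 to 6.85) in the library labelled WT, a ratio of 1.08 (0.909 to 1.28). The intervals overlap. Its 8 exons were covered in both libraries, with ratios of 0.771 to 1.81 over exons 1 to 7 and intervals that all hold 1. CD25 is also a marker of double-negative thymocytes, the stage before DP, for which 9 further markers were summed. They came to 19.0 and 30.3 TPM in the libraries labelled KO and WT, with 4 of the 9 at 1 TPM or more and none at 0 in both. Of these 4, Notch3, itself past the fold threshold, stood at 5.13 and 13.3 TPM. Dtx1 stood at 7.81 and 9.78 TPM and Kit at 1.57 and 2.91 TPM. Lyl1 went the other way at 2.44 and 2.13 TPM, with a ratio interval of 0.723 to 1.84 that holds 1. Hes1, under 1 TPM in both, also did, at 0.881 and 0.597 TPM. The part of double-negative cells in the Il2ra level was not tested.

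The genes of the 3 TNF receptor superfamily members all lie on chromosome 4, Tnfrsf4 and Tnfrsf18 close together and Tnfrsf9 far from them, and none was called. Tnfrsf18 (gene ID 21936, 156026342 to 156028891, plus strand) encodes GITR, a costimulatory receptor of Treg cells and their precursors. Its RNA came to 79.0 TPM (73.8 to 84.5) in the library labelled KO, against 71.3 TPM (65.8 to 77.1) in the library labelled WT, a ratio of 1.11 (0.999 to 1.23). Tnfrsf4 (gene ID 22163, 156013695 to 156016589, plus strand) encodes OX40, which sustains activated T cells. OX40 RNA came to 20.4 TPM (18.0 to 23.0) in the library labelled KO, against 22.1 TPM (19.2 to 25.2) in the library labelled WT, a ratio of 0.924 (0.770 to 1.11). All 7 exons of its single transcript had intervals that hold 1. Tnfrsf9 (gene ID 21942, 150920155 to 150946102, plus strand) encodes 4-1BB, a costimulatory receptor that is induced by antigen receptor signals. Tnfrsf9 had 43.3 TPM (40.7 to 46.1) in the library labelled KO, against 36.0 TPM (33.3 to 38.9) in the library labelled WT, and these intervals do not overlap. The ratio was 1.203 (1.09 to 1.33) and the log2 fold change 0.26, the highest of the 8 genes and above that of 90.8% of all tested genes. The neighbour of Tnfrsf9 at a gap of 10.2 kb, Park7, stood at 322 and 253 TPM in the libraries labelled KO and WT, and Per3 on the other side at 1.36 and 1.201 TPM.

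Tnfrsf18 and Tnfrsf9 each have a transcript that lacks 1 coding exon, and these exons are printed because the estimated shares turn on them. As above, capitals mark the exon and lower case the 15 bases on either side, from GENCODE M21.
Tnfrsf18 exon 4: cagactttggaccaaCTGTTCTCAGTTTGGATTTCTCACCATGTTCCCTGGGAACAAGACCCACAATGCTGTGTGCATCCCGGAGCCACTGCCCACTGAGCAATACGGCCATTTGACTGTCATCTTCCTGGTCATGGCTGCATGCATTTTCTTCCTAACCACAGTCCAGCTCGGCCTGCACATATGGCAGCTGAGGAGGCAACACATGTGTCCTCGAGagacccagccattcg
Tnfrsf9 exon 7: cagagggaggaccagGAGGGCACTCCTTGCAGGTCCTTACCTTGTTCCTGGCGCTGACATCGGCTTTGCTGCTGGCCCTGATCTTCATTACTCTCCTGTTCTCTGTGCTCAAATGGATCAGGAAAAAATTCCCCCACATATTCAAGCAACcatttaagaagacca
Tnfrsf18 exon 4 (chromosome 4, 156028221 to 156028423) has 203 bases, so that skipping it shifts the reading frame. Tnfrsf9 exon 7 (chromosome 4, 150935422 to 150935556) has 135 bases, a multiple of 3, and encodes the membrane-spanning part; the form without it is known to be soluble in the mouse.

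The Tnfrsf18 transcript without exon 4 (NM_021985) was estimated at 9.80 TPM in the library labelled KO and 2.55 TPM in the library labelled WT. This is 12.4% (10.3 to 14.8%) and 3.58% (2.26 to 5.37%) of Tnfrsf18, with intervals that do not overlap. The depth of exon 4 did not show this difference. Exon 4 stood at 97.3 TPM-equivalents in the library labelled KO, where exons 3 and 5 stood at 76.8 and 67.1, and at 74.2 in the library labelled WT, where exons 3 and 5 stood at 80.95 and 53.4. Relative to the mean of both flanking exons it was 1.35 and 1.11. More skipping would lower this value, which has no interval here. The KO over WT depth ratio was 0.948 (0.668 to 1.35) for exon 3, 1.31 (1.05 to 1.64) for exon 4 and 1.26 (1.04 to 1.52) for exon 5. These intervals overlap, so no direction is given for exon 4. A share of 18.7% of the 50-base words of Tnfrsf18 transcripts in GENCODE M21 also occurs in Gm16008, which stood at 0.221 and 0.411 TPM.

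The Tnfrsf9 transcript without exon 7 (NM_001077508) was estimated at 14.1 TPM in both libraries, which is 32.6% (29.7 to 35.6%) of Tnfrsf9 in the library labelled KO and 39.1% (35.3 to 42.9%) in the library labelled WT. The main transcript with it (NM_001077509) stood at 27.0 and 18.8 TPM. Its shares were 62.2% (59.2 to 65.2%) and 52.1% (48.2 to 56.0%), with intervals that do not overlap. The other transcript with exon 7 (NM_011612) went the other way, at 5.19% and 8.84%. Exon 7 had 0.838 of the mean depth of exons 6 and 8 in the library labelled KO and 0.697 in the library labelled WT, from 62.7 and 37.2 read-pair equivalents. The difference in exon 7 depth lay within counting error, with a ratio of 1.31 (0.859 to 2.02), so no direction is given for exon 7. The intervals of the NM_001077508 shares overlap only narrowly, which is no test of a difference, and they leave out error in assigning reads.

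**Figure D4:**
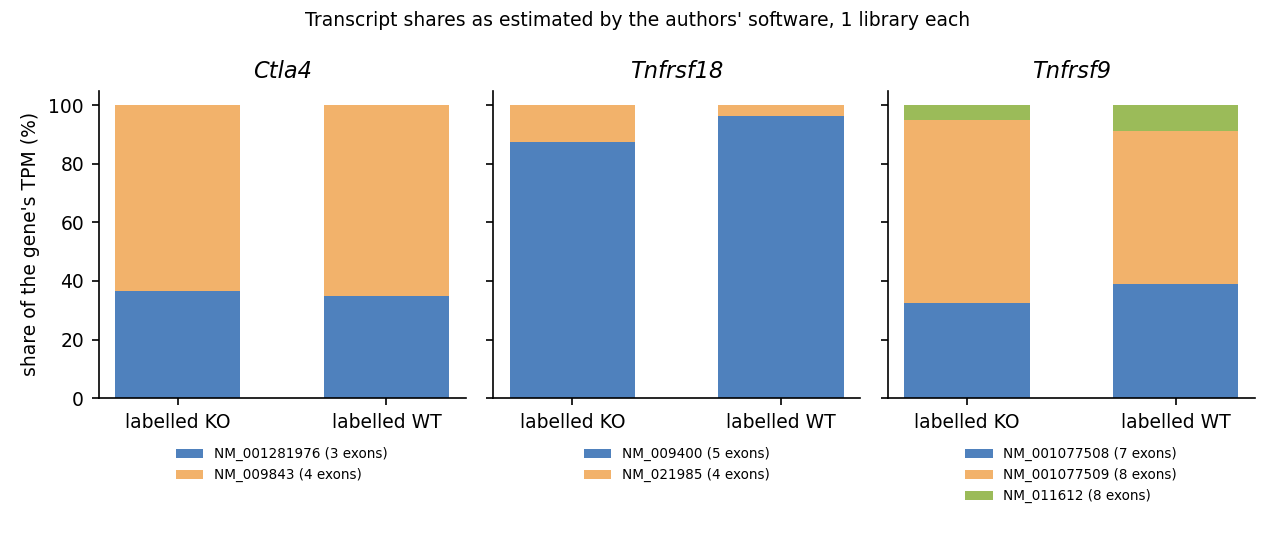
Share of each gene's TPM (percent) held by its annotated transcripts in the libraries labelled KO and WT, as the authors' software estimated them, for Ctla4, Tnfrsf18 and Tnfrsf9. The transcripts without the skipped exon are NM_001281976 (36.6% and 34.9%), NM_021985 (12.4% and 3.58%) and NM_001077508 (32.6% and 39.1%).

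Tnfrsf9 has 2 annotated first exons, and nearly all depth lay on the one nearer to the gene body. The proximal first exon (150927999 to 150928085) stood at 13.8 TPM-equivalents in the library labelled KO and 13.7 in the library labelled WT, from 13.4 and 10.3 read-pair equivalents. The distal one (150920155 to 150920260) stood at 0.130 and 1.75 TPM-equivalents, from 0.153 and 1.60 read-pair equivalents, under the floor of 3 in both, so no fold is given. NM_001077508 is annotated from the distal exon, yet its estimated 14.1 TPM came with almost no depth there. Both promoter windows are printed, 250 bases before the start to 50 after it, from RefSeq on GRCm38.p6, plus strand. Capitals mark matches to an NF-kB motif, GGGA and CC with any 4 bases between them, and to TGAGTCA, the letters of an AP-1 site, searched on both strands; these motifs were chosen with the sequences in view.
Tnfrsf9 distal promoter, chr4:150919905-150920204: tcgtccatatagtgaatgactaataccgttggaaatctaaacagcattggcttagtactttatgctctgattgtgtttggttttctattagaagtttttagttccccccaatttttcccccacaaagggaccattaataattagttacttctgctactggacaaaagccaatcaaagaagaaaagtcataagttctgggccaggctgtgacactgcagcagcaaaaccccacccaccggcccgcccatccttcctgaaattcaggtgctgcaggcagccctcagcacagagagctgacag
Tnfrsf9 proximal promoter, chr4:150927749-150928048: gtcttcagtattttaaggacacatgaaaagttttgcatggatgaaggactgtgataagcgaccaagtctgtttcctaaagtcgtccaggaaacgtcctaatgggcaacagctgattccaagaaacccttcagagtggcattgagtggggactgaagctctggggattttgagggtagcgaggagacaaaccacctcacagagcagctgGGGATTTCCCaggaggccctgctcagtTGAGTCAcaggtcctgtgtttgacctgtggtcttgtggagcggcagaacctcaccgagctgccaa
The proximal window holds both motifs, starting 42 and 15 bases before the start site, and the distal window neither. Among 32851 promoter windows of this length, 20.7% held the NF-kB motif and 5.20% held TGAGTCA. Of the 9 windows of the 7 genes in the table (Ikzf2 has none there), 3 held the NF-kB motif, which are those of Il2ra, the first start of Foxp3 and the proximal start of Tnfrsf9, and TGAGTCA occurred in the last alone. A match of letters is a description and says nothing of binding.

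Pdcd1 (gene ID 18566, chromosome 1, 94038305 to 94052553, minus strand) encodes PD-1, the inhibitory receptor that also marks precursors of intraepithelial T cells in the mouse thymus. PD-1 RNA came to 113 TPM (109 to 118) in the library labelled KO, against 115 TPM (110 to 121) in the library labelled WT. With 2437 and 1928 estimated read pairs its ratio was 0.981 (0.924 to 1.04), a difference within counting error. All 5 exons had intervals that hold 1, with ratios of 0.826 to 1.03. Of the inhibitory receptor genes, Ctla4 was thus lower in the library labelled KO and Pdcd1 was close in both libraries.

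Of the 111 tested genes of the wider pathways none was called in either direction, but 1 was with a pseudocount of 0.1 TPM (Ikzf4, at -1.01) and 1 outside the terminal exon (Bmf, at -1.06). The medians of the 6 lists lay between -0.24 and -0.01, against -0.07 over all genes. Of the ligands and partners of the TNF receptors, 17 of 18 tested genes were below zero, with a median of -0.22, where 7394 of the 12029 tested genes were below zero. The lowest were Rel, an NF-kB subunit needed for Foxp3 induction in the mouse, at 21.8 and 35.7 TPM in the libraries labelled KO and WT, and the adaptor gene Traf1 at 15.8 and 24.3 TPM. The log2 fold change of Rel outside its terminal exon was -0.74, while that of Traf1 was -0.00095 there and -2.22 within the terminal exon. Tnfsf9, the ligand of 4-1BB, was the one gene above zero, at 6.05 and 5.01 TPM (log2 fold change 0.23, but -0.10 outside the terminal exon), and Traf2 was close at 71.1 and 71.4 TPM. The most abundant were Cd27, at 1291 and 1303 TPM, and Nfkb1, at 167 and 194 TPM.

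Among Ikaros family genes and regulators of Foxp3, 20 of 25 tested genes were below zero, with a median of -0.24. Ikzf4, which encodes the Helios relative Eos, was the lowest at 2.46 TPM in the library labelled KO against 5.04 TPM in the library labelled WT, a ratio of 0.488 (0.375 to 0.633). Nr4a2, an orphan receptor gene induced by antigen receptor signals, stood at 5.57 and 9.89 TPM. Uhrf1, which maintains DNA methylation during replication, was the highest at 93.7 and 62.4 TPM. Nfatc1 followed at 148 and 120 TPM; outside the terminal exon, however, it had a log2 fold change of -0.37. Ets1 (1233 and 1421 TPM) and Satb1 (1482 and 1586 TPM) were the most abundant. Outside terminal exons the median of this list was -0.53, against -0.14 over all genes.

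In the CTLA-4 and PD-1 pathway 7 of 17 tested genes were above zero and 10 below, with a median of -0.03. Lrba, whose protein protects CTLA-4 from lysosomal breakdown, stood at 14.7 and 19.2 TPM in the libraries labelled KO and WT. The ligand gene Cd86 stood at 0.901 and 1.41 TPM. The highest fold changes were those of Cd96 (212 and 172 TPM) and the phosphatase gene Ptpn2 (80.1 and 68.7 TPM). Cd5 (1499 and 1533 TPM) and Dgka (610 and 731 TPM) were the most abundant. In the IL-2 receptor and STAT5 pathway 5 of 14 were above zero and 9 below, with a median of -0.12. The receptor chains that pair with CD25 were close in both libraries, Il2rb at 28.7 and 26.2 TPM and Il2rg at 1056 and 979 TPM. Socs3, a feedback inhibitor, stood at 5.43 and 8.36 TPM (log2 fold change -0.54, but 0.29 outside the terminal exon), the kinase gene Jak3 at 37.7 and 48.7 TPM and Stat5b at 389 and 485 TPM.

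Other Treg signature genes, 23 of 31 of which were tested, had a median of -0.01, with 10 above zero and 13 below. Nrp1, a surface marker of thymus-derived Treg cells in the mouse, stood at 7.93 and 5.75 TPM in the libraries labelled KO and WT, and S100a6 at 23.1 and 19.1 TPM. The lowest after Ikzf4 was the chemokine receptor gene Ccr6, at 1.69 and 2.79 TPM, and the most abundant were Ccr4 (271 and 259 TPM) and Cd81 (166 and 182 TPM). Genes induced by strong T cell receptor signals had a median of -0.07 over 25 tested genes, the same as over all genes, with 8 above zero and 17 below. Nr4a1, the reporter gene of signal strength, stood at 626 and 640 TPM. The highest of this list were Cd69 and Nfkbid (180 and 156 TPM), and the lowest was Bmf, a death-promoting BCL2 family gene, at 31.4 and 57.9 TPM. Several genes, Ptpn2, Cd5, Rel, Ikzf4 and the Nr4a genes among them, stand in more than 1 list.

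**Figure D5:**
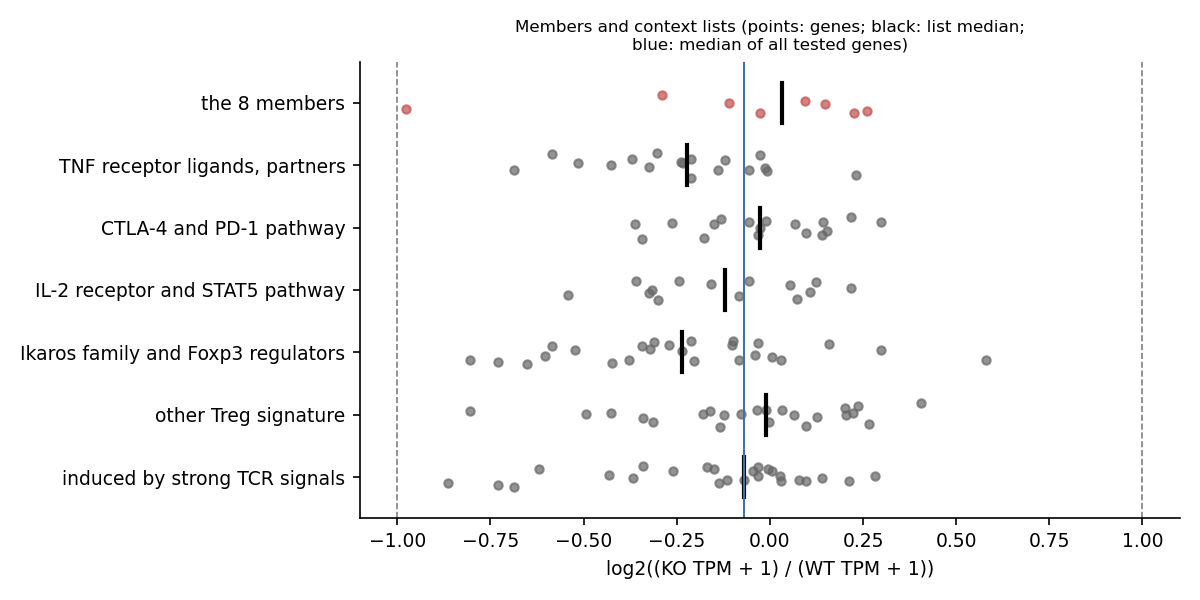
Log2 fold changes, KO over WT by label, of the 8 genes (top row, red) and of the tested genes of 6 context lists (grey), with the median of each row as a black bar and the median of all tested genes, -0.07, as a blue line. No point lies beyond the dashed lines at -1 and 1.

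Markers of other cells that carry these genes were present at low levels, and their part in the levels above was not tested. Mature single-positive thymocytes, which include Treg cells, had 7 markers with a summed level of 354 TPM in the library labelled KO and 407 TPM in the library labelled WT, all 7 at 1 TPM or more. Within them Klf2 (19.3 and 41.5 TPM) and S1pr1 (3.61 and 8.28 TPM) were past the fold threshold, lower in the library labelled KO as Ctla4 was, and Ccr7 stood at 65.1 and 100.5 TPM, while Zbtb7b (16.0 and 15.5 TPM) and Cd40lg (29.0 and 28.4 TPM) were close. The 6 NK and innate lymphoid markers summed to 277 and 248 TPM, mostly Gata3 (163 and 166 TPM), which T cells also express, and Nkg7 stood at 52.4 and 35.2 TPM. The 7 dendritic cell markers summed to 15.3 and 18.9 TPM, the 7 macrophage markers to 65.7 and 77.7 TPM and the 6 B cell markers to 62.5 and 54.0 TPM, with none at 0 in both libraries. Of 6 thymic epithelial markers, which summed to 8.98 and 7.47 TPM, Foxn1, Krt5 and Krt8 were at 0 in both.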

How the data were processed

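RNA-seq of 2 libraries of sorted CD69-positive DP thymocytes was used. Libraries were made from 1 ug of Trizol-extracted RNA with a TruSeq RNA v2 kit, per the labels' protocols; that kit does not mark strand, and the sources used here do not give the strand setting of the counting. The submitters' processing notes name HISAT2 (version not given in the sources used here) and the build mm10 (GRCm38). StringTie 1.3.3b was run on known RefSeq transcripts without assembly of others, per the file headers. Gene tables deposited by the authors give TPM, FPKM and coverage. Their deposited transcript tables give these for transcripts, and for exons the coverage (reads over an average base, with no scaling to depth).

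Symbols came from RefSeq genes on GRCm38.p6, which matched 24462 of 24532 gene IDs. TPM keeps no depth, so read pairs were estimated as covered bases divided by 202, 2 mates of 101 bases. In the libraries labelled KO and WT, 33.4% and 32.2% of transcripts with few reads lay within 2 bases of a multiple of 202, against 2.48% by chance. Levels have exact Poisson and ratios exact binomial (Clopper-Pearson) intervals at 95%, and the floor for a level of 0 was 3 read pairs; PCR copies are not independent molecules, so both cover counting error only. Exon depth was scaled to TPM-equivalents by the ratio of TPM to coverage of the library. The level outside the terminal exon took all exonic bases that do not overlap the last exon of the most abundant transcript, divided by the length of that transcript without it. The pseudocount was 1 TPM and the filter 1 TPM in at least 1 library. The fold rule and the intervals were tried on simulated counts that held counting error alone, which says nothing of variation between libraries.

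The members and the context lists were chosen with earlier results of these data known. Named genes are the 8 members, and of each list the 2 highest and 2 lowest fold changes, the 2 highest levels and any called gene, together with the targeted gene, sorting markers and genomic neighbours; Xist, Ddx3y, Ccdc22, Gm16008 and single cell type markers were named after their values were seen. The summed erythroid markers are not reported here. With 2 libraries no genes can be ranked by likeness of pattern. Alternatives were the pseudocount, the filter, FPKM, a rescaling by the median ratio and the level outside the terminal exon. Scripts ran in Python 3.11.15 with scipy 1.17.1, pandas 2.3.3 and numpy 2.4.6; figures used matplotlib 3.10.9.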

Additional observations from a re-analysis of the deposited data

How the results depend on the processing

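No paired analysis was possible because there is 1 library per genotype, and no library could be left out. On recomputing, 20 values moved by more than counting error, or by over 1.5 times for a count, and all others run did not. Outside the terminal exon the log2 fold change was -0.30 for Foxp3, -0.83 for Ikzf2 and -0.16 for Pdcd1. There 1 of the 8 genes, Ctla4 at -1.002, passed the fold rule, against 1.79% of 11260 genes. With a pseudocount of 0.1 TPM 1 gene, again Ctla4, passed, against 3.69% of all genes. Of the list genes, Ikzf4 passed with that pseudocount and Bmf outside the terminal exon. With FPKM the value was -0.19 for Ikzf2 and 0.0703 for Pdcd1, and with the rescaling -0.23 for Ikzf2. Over all genes, the counts higher and lower in the library labelled KO were 139 and 305 with a pseudocount of 0.1 TPM, 21 and 34 with 5 TPM, 51 and 50 with FPKM, and 46 and 83 among genes of at least 5 TPM. Outside terminal exons the list medians were -0.19 for the CTLA-4 and PD-1 pathway, -0.53 for Ikaros family and Foxp3 regulators and -0.17 for other Treg signature genes. With FPKM the median of genes induced by strong T cell receptor signals was 0.0299, and that of all genes was 0.02. The causes were not tested. Ctla4 was lower in the library labelled KO under every alternative. The depth limits Foxp3 most, at 67.7 and 40.9 read pairs.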
